A study of Mus musculus with 4 samples.

Results

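lncOL1 (9630013A20Rik), the long noncoding RNA deleted in this study, was set beside 9 well known long noncoding RNAs, namely Neat1, Malat1, Miat, Gas5, Snhg1, Snhg11, Rmst, Sox2ot and Pvt1. The 10 RNAs were chosen by name, and all 10 were found among 23435 gene symbols in the tables. RNA was sequenced from primary mouse oligodendrocytes, grown from precursor cells and given T3, a thyroid hormone that promotes their differentiation, for 1 day. Both control libraries carry the genotypes lncOL1+/+ and lncOL1+/- in a single label, which leaves the genotype of each of the 2 unknown. The 2 knockout libraries are labelled lncOL1-/-, and the strain of all 4 is a mixed background. The labels do not tie libraries to separate animals or cultures. The p-values therefore measure only the spread between these libraries, which may be technical. The extent of the deletion is not stated in the labels.

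Long noncoding RNAs are transcripts that act without being translated, and several of the 10 work in the nucleus. Malat1 gathers in nuclear speckles, where splicing factors are stored, and Neat1 is the scaffold of the neighbouring bodies called paraspeckles. Gas5, Snhg1 and Snhg11 are host genes whose introns carry small nucleolar RNAs (snoRNAs), which guide chemical modification of ribosomal RNA. lncOL1 is known as an RNA of oligodendrocytes, and the series title joins it with Suz12, a subunit of a complex that methylates histone H3. Miat, Rmst and Sox2ot are known from neural cells, and Pvt1 is known as the neighbour of the Myc oncogene.

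Each level is in FPKM, a fragment count divided by transcript length and by library size, which the authors computed for each library. FPKM is per length, so levels of different genes can be set side by side. Summed FPKM ran from 373484 to 383128 over the 4 libraries, and 11292 to 11365 genes reached 1 FPKM. Read counts are not part of the files, and the depth behind each value is unknown. A gene was tested when its mean over the 4 libraries was at least 1 FPKM, and it is called higher or lower when limma, fitted to log2(FPKM + 1) of all 11361 such genes, gave an adjusted p under 0.05. An exact permutation test of 2 against 2 libraries cannot go below p = 0.333. Markers of the labelled cell type were abundant in all 4 libraries. The summed level of 9 markers of myelinating oligodendrocytes was 8303 and 8652 FPKM for the controls against 6347 and 6570 for the knockouts, and that of 6 markers of newly formed oligodendrocytes lay between 2700 and 2961 in every library.

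The start regions of 4 of these RNAs are printed for lncOL1, the RNA that changed, and for Malat1, Gas5 and Snhg1, abundant RNAs that carry the comparison. Each window is RefSeq sequence of GRCm38.p6, which is mm10, from 250 bases before to 50 bases after the annotated start, read along the gene's own strand. 6 of the 10 RNAs had a window, and for Gas5 the one at the start of the locus in the files is shown. Capitals mark matches, on either strand, to the motif TATAAA, the motif CCAAT, the motif GGGCGG, the motif TGACGT or the motif ACAAT.
lncOL1, chromosome 14, minus strand, chr14:84476375-84476674: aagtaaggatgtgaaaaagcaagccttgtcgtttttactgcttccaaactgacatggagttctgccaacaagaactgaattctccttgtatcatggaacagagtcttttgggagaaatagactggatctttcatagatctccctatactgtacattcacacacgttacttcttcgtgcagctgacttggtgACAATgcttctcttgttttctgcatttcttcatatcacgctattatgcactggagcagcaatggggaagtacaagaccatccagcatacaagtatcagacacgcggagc
Malat1, chromosome 19, minus strand, chr19:5802623-5802922: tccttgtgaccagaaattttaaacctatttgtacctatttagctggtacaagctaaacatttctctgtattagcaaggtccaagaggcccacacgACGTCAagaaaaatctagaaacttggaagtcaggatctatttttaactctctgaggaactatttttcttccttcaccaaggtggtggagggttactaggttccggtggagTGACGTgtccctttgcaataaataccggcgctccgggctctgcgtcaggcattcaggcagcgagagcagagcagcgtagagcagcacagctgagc
Gas5, chromosome 1, plus strand, chr1:161034916-161035215: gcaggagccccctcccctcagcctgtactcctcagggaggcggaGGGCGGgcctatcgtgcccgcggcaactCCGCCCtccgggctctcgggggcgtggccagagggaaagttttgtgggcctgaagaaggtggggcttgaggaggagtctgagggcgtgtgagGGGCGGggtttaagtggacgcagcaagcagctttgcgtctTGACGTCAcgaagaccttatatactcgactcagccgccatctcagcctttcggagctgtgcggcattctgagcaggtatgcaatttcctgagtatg
Snhg1, chromosome 19, plus strand, chr19:8723237-8723536: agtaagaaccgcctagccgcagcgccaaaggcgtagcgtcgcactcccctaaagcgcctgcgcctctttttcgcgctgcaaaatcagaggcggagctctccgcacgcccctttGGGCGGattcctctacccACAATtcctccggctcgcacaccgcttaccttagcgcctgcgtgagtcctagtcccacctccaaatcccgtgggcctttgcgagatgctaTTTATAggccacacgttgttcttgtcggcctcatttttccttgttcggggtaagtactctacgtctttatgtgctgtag
The lncOL1 window held 42.7% G and C and 6 CpG dinucleotides, against a median of 52.7% and 7 over 32851 windows in the RefSeq set. Its 1 match was ACAAT, the core read by Sox factors, 59 bases before the start, a motif present in 31.0% of all windows. Malat1 had 47.0% G and C and 10 CpG, with TGACGT, the core of the cyclic AMP response element, on both strands at different places. Gas5 had 62.0% and 19 CpG, and its match to TGACGT on one strand overlapped that on the other. This motif is in 7.51% of all windows. Snhg1 had 56.7% and 25 CpG, with TATAAA on the opposite strand 29 bases before the start, which 13.6% of all windows hold on either strand. The Snhg1 window also held ACAAT, 119 bases before the start. GGGCGG occurred in the Gas5 and Snhg1 windows and in 35.7% of all windows, and CCAAT in none of the 4 printed and in 37.4% of all. The matches are descriptions of these letters only.

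lncOL1 was the 5th most abundant of the 10 RNAs in control cells. It was at 28.86 and 34.01 FPKM in control replicates 1 and 2, and 79.0% of tested genes had a control mean at or below its own. Levels of 5.54 and 5.06 FPKM were found in knockout replicates 1 and 2, far below both control libraries. The mean went from 31.4 ± 3.64 to 5.30 ± 0.342 FPKM (SD, n = 2 each), so 16.9% of the control level was left. The log2 fold change was -2.36 (SE 0.0968, limma adjusted p = 0.000389), and 2 of 11361 genes had a smaller p. Of these genes 9 had a more negative log2 fold change, among them genes listed near 0 in the knockout. As the deleted gene, lncOL1 serves here as a check of the labels. The gene lies on the minus strand at positions 84458838 to 84476424 of chromosome 14 (mm10, from the files), and GENCODE M21 types it as antisense, with 5 transcripts of 1126 to 2341 bases. It sits within the plus-strand gene Pcdh17, which encodes a cell adhesion protein, and the authors' deposited table lists it under the span of that gene, with a log2 fold change of -2.51. No source states whether counting used strand, so unspliced reads of the pair cannot be told apart. Pcdh17 itself was at 24.0 and 25.6 FPKM in the controls against 25.5 and 24.6 in the knockouts, and these values overlap.

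In the control libraries the order of the means was Malat1, Neat1, Sox2ot, Snhg1, lncOL1, Gas5, Miat, Pvt1, Snhg11 and Rmst. The ranges of neighbours in this order did not overlap in either group, with 2 libraries each, so each step was larger than the spread between libraries. In the knockout lncOL1 moved from rank 5 to rank 7, between Miat and Pvt1, and the other 9 kept their order among themselves. Of all 11361 tested genes, 95.3% had a control mean at or below that of Malat1, 49.0% at or below that of Miat and 17.9% at or below that of Pvt1. Snhg11 was below the minimum and Rmst was listed at 0, so 8 of the 10 RNAs were tested.

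**Figure D1:**
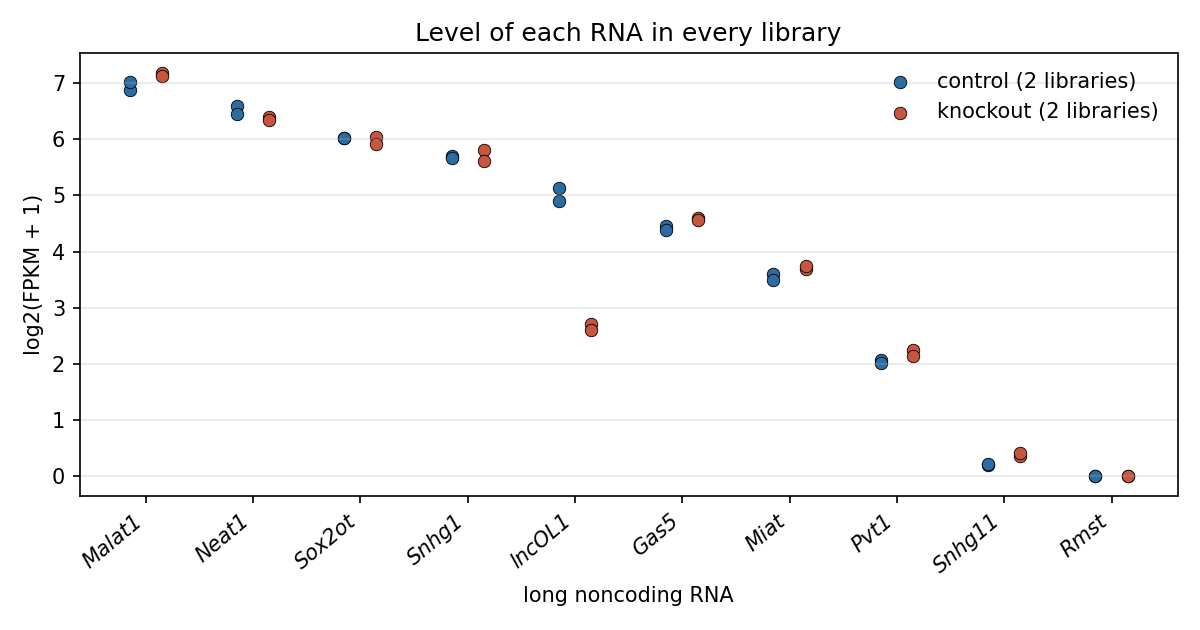
Level of each of the 10 RNAs as log2(FPKM + 1) on the vertical axis, with 1 point for each of the 2 control and 2 knockout libraries and the RNAs ordered by control mean. The control and knockout points of lncOL1 lie far apart, and those of the other 9 RNAs lie close together.

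Among the 8 tested RNAs, lncOL1 fell, none rose, and 7 did not pass the test. Over all genes tested 1.31% were called, 0.783% lower and 0.528% higher. The largest log2 fold change among these 7 was 0.21 in size, and their median size was 0.15, against 0.08 over all tested genes. Unadjusted p-values under 0.05 were found for 2 of the 8, against 13.7% of all tested genes. In 5 of the 7 the control and knockout libraries did not overlap, 4 with the knockout higher, but 43.4% of all tested genes have groups that do not overlap, 22.6% with the knockout higher. A p that misses the threshold does not show that these RNAs were equal in both groups, and the 95% interval of each fold is given for that reason.

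The RNAs of nuclear bodies had small differences in opposite directions. Malat1 (chromosome 19, 5795690 to 5802671) was at 116.8 and 128.2 FPKM in the controls against 143.8 and 138.7 in the knockouts. Both knockout libraries were above both control libraries. The ratio of knockout to control in the fit was 1.15 (95% interval 1.02 to 1.31, log2 fold change 0.21, SE 0.0762, unadjusted p = 0.0329, limma adjusted p = 0.304). Neat1 (chromosome 19, 5842302 to 5845478) was at 95.6 and 86.6 FPKM in the controls against 83.6 and 79.8 in the knockouts. Here both knockout libraries were below both control libraries, at a ratio of 0.899 (95% interval 0.790 to 1.02, limma adjusted p = 0.464). The authors' deposited table calls both, Malat1 higher with a log2 fold change of 0.19 and q = 0.0480, and Neat1 lower with -0.26 and q = 0.00280. Calls in the authors' deposited table cover 5.78% of 12517 genes, 1.74% higher and 4.04% lower. Miat, a nuclear RNA also called Gomafu, was at 11.1 and 10.3 FPKM in the controls against 11.9 and 12.3 in the knockouts. Its groups did not overlap, and the ratio was 1.12 (95% interval 0.992 to 1.27, limma adjusted p = 0.397). GENCODE places exons of Gm26953, on the other strand, over 24.3% of the Miat exon bases, and without the strand setting reads there cannot be told apart.

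**Figure D2:**
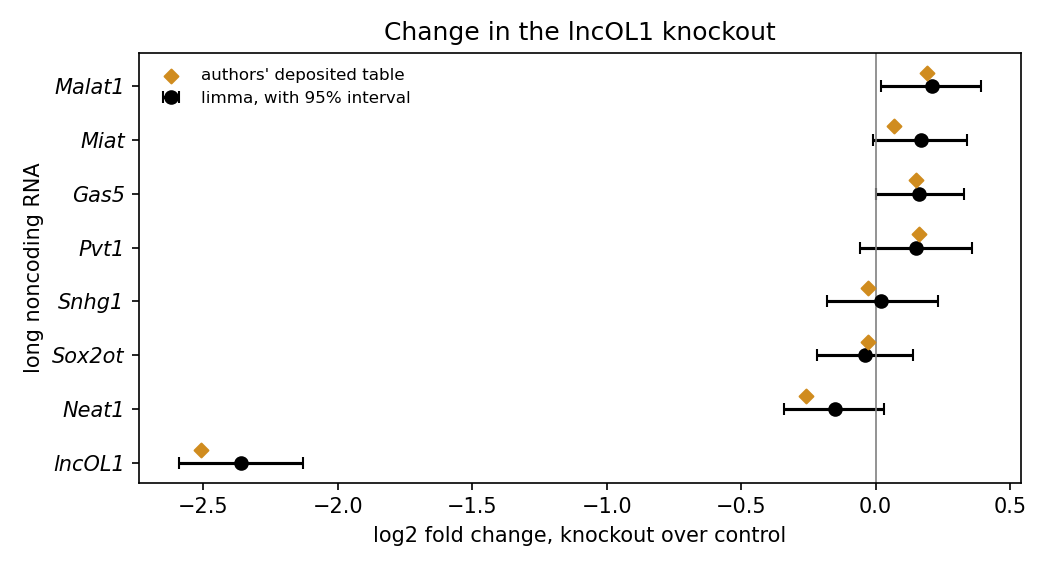
Log2 fold change of knockout over control for the 8 tested RNAs, with points and bars for the limma estimate and its 95% interval and diamonds for the authors' deposited table. lncOL1 lies at -2.36, and the estimates of the other 7 lie between -0.15 and 0.21.

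The annotated locus behind an FPKM limits what it can show. For Neat1 the locus in the files spans 3.18 kb at the 5′ end, 15.3% of the 20.8 kb gene in GENCODE, so its FPKM covers the part shared by the short and the long Neat1 RNA. The long RNA, which builds paraspeckles, was thus not measured on its own. The Sox2ot locus in the files covers 20.3% of the 578.0 kb GENCODE gene and that of Pvt1 62.6% of 340.0 kb. The lncOL1 locus covered 98.9% of its GENCODE span, and that of Malat1 all but 1 base.

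**Figure D3:**
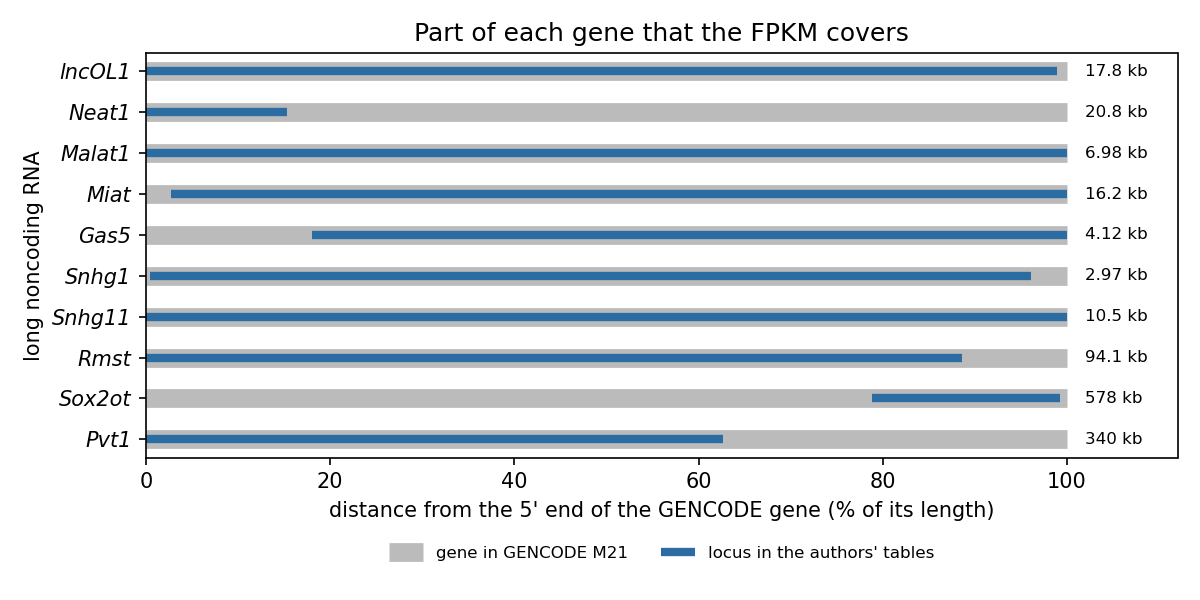
Each gene as annotated in GENCODE M21 in grey, scaled from its 5′ end to its 3′ end in percent of its length, with the locus of the authors' tables in blue and the gene length in kb at the right. Neat1 is covered over its first 15.3% and Sox2ot over 20.3% near its 3′ end.

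None of the snoRNA host genes among the 10 RNAs was called. Gas5 (chromosome 1, 161035166 to 161038537), a host gene that accumulates in growth-arrested cells, was at 20.9 and 19.8 FPKM in the controls against 23.1 and 22.8 in the knockouts. Its groups did not overlap, with a ratio of 1.12 (95% interval 0.999 to 1.26, unadjusted p = 0.0516, limma adjusted p = 0.368). Snhg1 (chromosome 19, 8723487 to 8726326) was at 51.4 and 50.1 FPKM in the controls against 55.2 and 48.2 in the knockouts, so that the knockout libraries lay on both sides of the control ones. Its ratio was 1.02 (95% interval 0.884 to 1.17, limma adjusted p = 0.948). Snord22, a snoRNA inside Snhg1, was listed at 71.7 and 78.8 FPKM in the controls against 112.9 and 58.0 in the knockouts, a wide spread within the knockout group. Snhg11 (chromosome 2, 158375638 to 158386145), a host gene known from neurons that GENCODE M21 types as protein coding, was close to 0 throughout. It was at 0.145 and 0.159 FPKM in the controls against 0.289 and 0.338 in the knockouts, 206% of the control mean. The knockout libraries were above the control ones, as for 20.6% of the 6036 genes above 0 and below the minimum. With no filter its log2 fold change on the log2(FPKM + 1) scale was 0.19 (limma adjusted p = 0.201), and the authors' deposited table did not test it.

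Neuron markers differed in both directions between the groups. The summed FPKM of the 12 markers was 171.1 and 169.2 for the controls against 140.1 and 138.1 for the knockouts, with Elavl3, an RNA-binding protein, at 119.0 and 117.2 FPKM in the controls against 85.1 and 79.9 in the knockouts. Elavl3 was the 1 marker called of 6 tested, and it fell (log2 fold change -0.51, limma adjusted p = 0.0263). Over all tested genes 0.783% were called lower. The lower sum rests on Elavl3, since the other 11 markers summed to 52.1 and 52.0 FPKM for the controls against 55.0 and 58.2 for the knockouts. Of the 6 tested log2 fold changes 4 were positive, 2 of them at an unadjusted p under 0.05. Over all tested genes 51.4% were positive, and 13.7% had an unadjusted p under 0.05 in either direction. Dcx, a microtubule-binding protein of young neurons, was at 8.45 and 9.49 FPKM in the controls against 11.2 and 12.3 in the knockouts. Its groups did not overlap (log2 fold change 0.36, limma adjusted p = 0.129). A higher level of Dcx is called in the authors' deposited table (q = 0.0227). Syp, a synaptic vesicle protein that was named after its values were seen, was at 11.4 and 10.9 FPKM in the controls against 12.3 and 13.3 in the knockouts (log2 fold change 0.18, limma adjusted p = 0.355). Tubb3, a neuronal tubulin, was at 27.8 and 27.7 FPKM in the controls against 27.1 and 28.2 in the knockouts. The defining markers Rbfox3, Stmn2 and Slc17a6 were at or below 0.226 FPKM in every library.

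Sox2ot and Pvt1 did not pass the test, and Rmst was listed at 0. Sox2ot (chromosome 3, 34560381 to 34677993), which contains the Sox2 gene on the same strand, was at 63.9 and 64.0 FPKM in the controls against 65.2 and 59.2 in the knockouts. The groups overlapped, and the ratio was 0.972 (95% interval 0.858 to 1.10, limma adjusted p = 0.888). Sox2, a transcription factor of neural precursors, was at 211.0 and 200.7 FPKM in the controls against 212.0 and 212.0 in the knockouts (log2 fold change 0.04, limma adjusted p = 0.867), and its groups did not overlap. Rmst (chromosome 10, 92081746 to 92165178), known in human cells as a partner of Sox2 in neuronal differentiation, was listed at 0 in all 4 libraries. Pvt1 (chromosome 15, 62037987 to 62250975) was at 3.20 and 3.03 FPKM in the controls against 3.73 and 3.40 in the knockouts. Its groups did not overlap, at a ratio of 1.11 (95% interval 0.960 to 1.28, limma adjusted p = 0.531). Myc, the growth-promoting transcription factor gene 47.6 kb from Pvt1, was at 22.9 and 22.7 FPKM in the controls against 24.6 and 25.8 in the knockouts (log2 fold change 0.14, limma adjusted p = 0.450).

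The nearest tested genes around the 10 RNAs were not called by limma. The nearest tested gene on each side of every RNA gave 18 genes outside the set, some of them far away. For lncOL1 they were Gm10845 at 4590 kb and Tdrd3 at 2940 kb. Pcdh17, which contains lncOL1, is not among the 18, so they do not cover the surroundings of the deleted gene. Of the 18, 0 were called by limma and 1 had an unadjusted p under 0.05, against 1.31% and 13.7% of all tested genes. Log2 fold changes of the 18 ran from -0.24 to 0.21, with a median of 0.01 against 0.005 over all tested genes. The lowest was that of Frmd8, 5.50 kb from Neat1, at 129.8 and 130.4 FPKM in the controls against 105.0 and 115.1 in the knockouts (unadjusted p = 0.0157, limma adjusted p = 0.220). The authors' deposited table calls Frmd8 lower, with a log2 fold change of -0.35 and q = 6.31e-06. Slc3a2, which encodes a subunit of amino acid transporters and lies 0.118 kb from Snhg1, was at 28.7 and 29.0 FPKM in the controls against 28.3 and 27.8 in the knockouts. Zbtb37, 0.907 kb from Gas5, was at 1.81 and 1.88 FPKM in the controls against 1.76 and 1.97 in the knockouts.

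Genes whose products work with these RNAs were likewise not called. Over all tested genes 1.31% were called, so 0 calls in lists this short say little about them. None of 14 paraspeckle proteins, 13 nuclear speckle proteins and 10 partner proteins named for the 10 RNAs passed the limma test or had an unadjusted p under 0.05. Their median log2 fold changes were 0.01, 0.03 and 0.05. In these lists 9, 11 and 7 log2 fold changes were positive, and over all tested genes 51.4% were. Sfpq, a core paraspeckle protein, was at 161.0 and 140.6 FPKM in the controls against 152.8 and 130.2 in the knockouts. Hnrnpk, an abundant RNA-binding protein of paraspeckles, was at 347.0 and 335.9 FPKM in the controls against 364.3 and 320.0 in the knockouts. Qk, the Quaking protein of oligodendrocytes, was at 347.0 and 417.0 FPKM in the controls against 362.3 and 357.6 in the knockouts. Suz12, named because the series title holds it, was at 9.52 and 11.1 FPKM in the controls against 11.2 and 10.4 in the knockouts. Of 27 translation genes, whose RNAs share with Gas5 a start that ties them to growth, 0 were called by limma. At an unadjusted p under 0.05, 3 were higher and 0 lower, against 13.7% of all tested genes in either direction. Of the 27 log2 fold changes 23 were positive and 4 negative, with a median of 0.06. Of the 27, 2 are called higher in the authors' deposited table, Rps19 with q = 0.0478 and Rps24, named after its values were seen, with q = 0.0425. Of 10 factors of nonsense-mediated decay, the pathway that degrades spliced Gas5, 0 were called, as were 0 of 11 tested targets of p53, with median log2 fold changes of 0.02 and -0.02.

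Among other snoRNA host genes 1 passed the test. Of 15 tested, 1 rose and 0 fell (limma), beside a background of 0.528% higher, and 13 of the 15 log2 fold changes were positive, with a median of 0.21. Over all tested genes 51.4% of log2 fold changes were positive. The gene called was Epb41l4aos, listed in the files under an older name, at 15.5 and 13.8 FPKM in the controls against 21.9 and 20.7 in the knockouts (log2 fold change 0.51, limma adjusted p = 0.0456). Its call was lost with each library left out in turn (adjusted p 0.143 to 0.280) and without a variance trend (adjusted p = 0.0653), and its adjusted p was 0.00871 to 0.280 over all alternatives. The authors' deposited table does not call Epb41l4aos (log2 fold change 0.43, q = 0.664), and it calls 0 genes of this list. The most abundant host gene, Snhg6, was at 105.3 and 100.6 FPKM in the controls against 92.5 and 78.6 in the knockouts (log2 fold change -0.27, limma adjusted p = 0.273). Snhg7 was at 8.95 and 7.72 FPKM in the controls against 10.9 and 10.2 in the knockouts (log2 fold change 0.31, limma adjusted p = 0.190).

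Among 22 tested RNAs of a list of other long noncoding RNAs, 3 rose and 0 fell (limma), beside 0.528% higher and 0.783% lower over all genes, and the median log2 fold change was 0.08. The authors' deposited table calls 4 RNAs of the list higher and 1 lower, which is Xist, the RNA that coats the inactive X chromosome, also named after its values were seen (log2 fold change -0.29, q = 0.000641). The 3 that rose by limma were H19 and Meg3, both expressed from the maternal copy only, and Six3os1. Six3os1 lies beside the forebrain gene Six3 and was named after its values were seen. Meg3 was at 9.94 and 9.88 FPKM in the controls against 15.8 and 16.8 in the knockouts (log2 fold change 0.67, SE 0.0704, limma adjusted p = 0.0113). Six3os1 was at 1.14 and 1.07 FPKM in the controls against 2.80 and 2.46 in the knockouts (log2 fold change 0.79, limma adjusted p = 0.0213). H19 was at 261.6 and 225.8 FPKM in the controls against 563.4 and 575.6 in the knockouts, more than any of the 10 RNAs in either group. Knockout libraries were above control ones for all 3. Leaving out knockout replicate 1 or 2 gave an adjusted p of 0.0726 or 0.0910 for H19, 0.0993 and 0.153 for Meg3 and 0.141 and 0.122 for Six3os1. Without control replicates 1 and 2 it was 0.119 and 0.105 for Meg3 and 0.119 and 0.117 for Six3os1. With no filter it was 0.0600, 0.0635 and 0.0855 for H19, Meg3 and Six3os1. Over all alternatives it ran from 8.11e-05 to 0.0910 for H19, from 0.00234 to 0.153 for Meg3 and from 0.00767 to 0.141 for Six3os1. Norad, an abundant RNA listed under an older name, was at 74.1 and 75.4 FPKM in the controls against 69.9 and 68.4 in the knockouts (log2 fold change -0.11, limma adjusted p = 0.545).

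**Figure D4:**
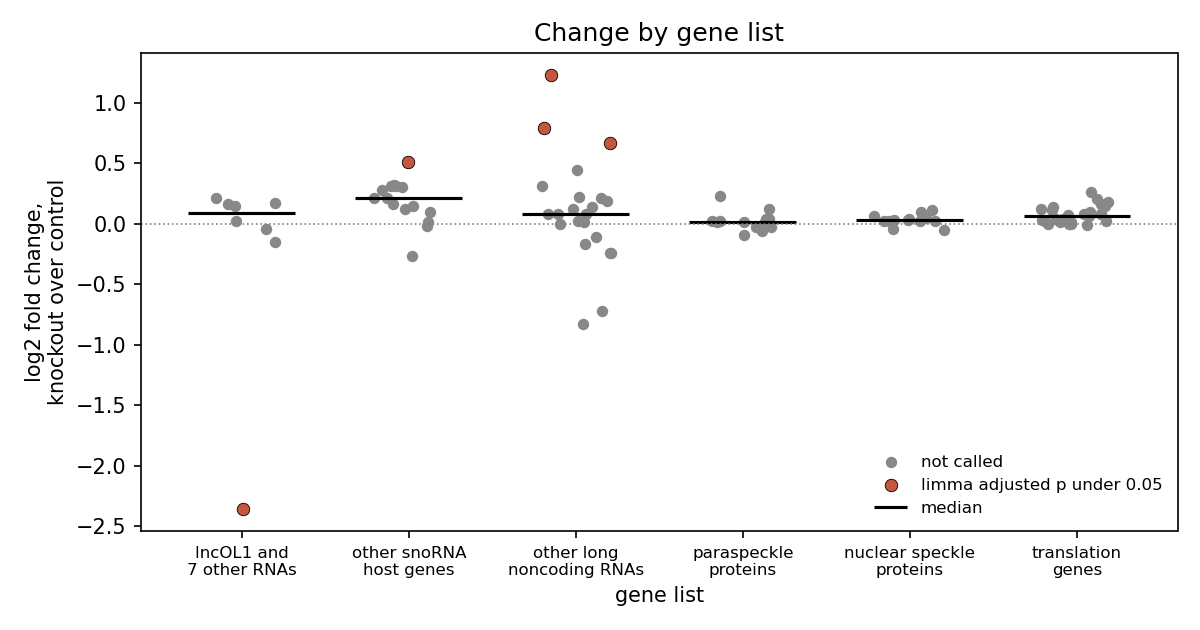
Log2 fold change of knockout over control for every tested member of 6 gene lists, with called genes in red and the median of each list as a bar. lncOL1 lies at -2.36, the median of the other snoRNA host genes lies at 0.21, and those of the protein lists lie between 0.01 and 0.06.

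Some markers of cell types differed between the groups beside these values. Of 5 tested microglia markers 2 rose (Tyrobp and Laptm5), and the summed level of 9 was 8.66 and 9.68 FPKM for the controls against 17.6 and 23.4 for the knockouts. Acta2, a smooth muscle actin and the 1 tested gene of 9 vascular and fibroblast markers, rose, and the summed level of all 9 was 2.89 and 3.22 against 4.43 and 4.02 FPKM. The other 8 were all below the minimum for testing. Without Acta2 these 8 summed to 1.74 and 1.49 FPKM in control replicates 1 and 2 against 1.35 and 0.701 in the knockouts. Of the 8, 5 were lower with groups that did not overlap, as were 20.7% of all tested genes. That share was not computed for genes below the minimum. Of 9 myelinating oligodendrocyte markers 1 fell, Mbp, which encodes myelin basic protein. Over all tested genes 0.528% were called higher and 0.783% lower. Of the 9 log2 fold changes 7 were negative and 2 positive, with a median of -0.21. At an unadjusted p under 0.05, 4 were lower and 1 higher. The authors' deposited table calls 3 of the 9 lower, against 4.04% of its genes. None of 6 newly formed oligodendrocyte, 6 precursor and 7 tested astrocyte markers was called by limma. Unadjusted p-values under 0.05 were found for 2, 2 and 2, against 13.7% of all tested genes. Of these 3 lists the authors' deposited table calls Enpp6 lower (q = 0.00572), Pcdh15 higher (q = 0.0135), and Gfap and Slc1a2 lower (q = 0.0408 and 7.95e-05). Calls in either direction cover 5.78% of the genes there. The summed level of the 8 astrocyte markers was 502.8 and 470.5 FPKM for the controls against 466.3 and 450.4 for the knockouts, and that of the 6 precursor markers lay between 244.5 and 271.7. The part of these cell types in the differences between groups was not tested, and in bulk RNA fewer cells of a type and less RNA per cell cannot be told apart.

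The genes whose pattern over the 4 libraries was most like that of lncOL1 were taken by the distance between centred log2(FPKM + 1) values. Only tested genes with a conventional symbol were searched. Among those left out were symbols of the Gm and Rik kinds, the latter being that of lncOL1, and those starting with Mir or Snor. The 5 closest of the genes searched were Ndufs5, Atp6v0c-ps2, Lrrc16a, Tmem2 and Lpar1, at distances of 0.616, 0.890, 1.11, 1.13 and 1.20. Ndufs5 and the pseudogene Atp6v0c-ps2 were below 0.006 FPKM in both knockout libraries. Tmem2, a cell surface hyaluronidase, was at 16.2 and 14.7 FPKM in the controls against 6.0 and 5.69 in the knockouts, and Lpar1, a receptor for lysophosphatidic acid, at 20.02 and 21.8 FPKM in the controls against 9.49 and 8.06 in the knockouts. With 4 libraries such likeness amounts to a like fall in the knockout.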

How the data were processed

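Gene-level FPKM of 4 libraries were used as computed and deposited by the authors, 1 table per library with a status per row, per the file headers. CASAVA, TopHat, Cufflinks, Cuffdiff and mm10 are listed in the submitters' processing notes, without versions. The authors' deposited comparison table gives, per the file headers, p-values and q-values, a test score, pooled FPKM and fold changes as log2. It is quoted as theirs. The kit named in the labels is an Illumina TruSeq RNA kit. Annotation and strand setting: not given in the sources used here.

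Rows sharing a symbol were summed (258 symbols), and 9 symbols were dropped because a row was not marked OK. Genes averaging 1 FPKM or more were fitted as log2(FPKM + 1) with limma 3.58.1 in R 4.3.3 (lmFit, eBayes with trend, 2 residual and 4.60 prior degrees of freedom), knockout minus control, with Benjamini-Hochberg adjustment over all genes tested. Fold changes on this scale understate those of low genes. The fit was tested on simulated data. Genes listed under older symbols were matched through RefSeq synonyms.

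The 10 RNAs, the gene lists and the rules were chosen with earlier results of these data known. Named genes were the 10 RNAs, their nearest tested neighbours, and up to 2 genes of highest mean and 2 of smallest p per list. Also named were the 5 genes with a conventional symbol most like lncOL1. A subset of all these is printed. Alternatives varied the pseudocount, the filter, the scaling, the variance trend, the treatment of repeated symbols, the replicate block and the libraries.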

Additional observations from a re-analysis of the deposited data

How the results depend on the processing

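lncOL1 kept its fall and its call in all 12 alternatives (log2 fold change -2.54 to -2.25, adjusted p 4.21e-06 to 0.0229), and it was the 1 called RNA of the 10 in each of them. Its rank among the 10 was 5 in each control library. The rank stayed at 5 under TPM scaling, which divides each library by its own sum and cannot change ranks within a library. The other 7 tested RNAs were called in no alternative. With 1 library left out, the log2 fold change of Snhg1 ran from -0.07 (without knockout replicate 1) to 0.12, and that of Sox2ot from -0.11 to 0.03 (without knockout replicate 2), so both changed sign. The cause was not tested for any change listed here. Over all genes 149 were called, 4 with no filter and 341 with a replicate block, and with 1 library left out 16 to 42. The 1 sample then left in a group is assumed to vary as the other group does. The lists of snoRNA hosts, other long noncoding RNAs, neuron, microglia, vascular and myelinating oligodendrocyte markers had 1, 3, 1, 2, 1 and 1 calls, and each had 0 with no filter. With 1 library left out their counts ranged from 0 to 0, 0 to 2, 0 to 0, 0 to 1, 0 to 0 and 0 to 0. The host genes had 0 calls without a variance trend. A mean of at least 5 FPKM left 0 microglia and 0 vascular calls and 2 for myelinating oligodendrocyte markers, which also had 2 with a pseudocount of 0.1, TPM scaling and quantile normalization. With the replicate block these had 3 calls, neuron markers 2 and other long noncoding RNAs 5. Same-numbered libraries did not deviate together (r = -0.0523 across 11361 genes). With so few libraries this cannot show whether the shared numbers pair them, and the labels do not say. With no read counts the depth, and so the reach for low RNAs such as Snhg11 and Rmst, is unknown.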

Other observations

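Rian, an RNA of the imprinted cluster that holds Meg3, was singled out after the values of Meg3 were seen. Its FPKM was 5.98 in control replicate 1, 7.39 in control replicate 2, 9.38 in knockout replicate 1 and 9.35 in knockout replicate 2. Both knockout libraries were above both control libraries. The log2 fold change of Rian was 0.44 and missed the threshold (limma adjusted p = 0.115), whereas the authors' deposited table calls it higher (q = 0.00326).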
